A study of Mus musculus with 2 samples.

Results

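Chemokines and their receptors were read from the array profiles of sorted LT-HSC (long-term haematopoietic stem cells, the bone marrow cells that can rebuild blood over a long period) of WASH knockout mice and of control mice. The members were all sequences whose gene name in the deposited files begins as a CC, CXC, XC or CX3C chemokine or receptor, or is Il8ra or Il8rb, the older names of Cxcr1 and Cxcr2. This rule found 73 of the 44170 sequences on each array, which stand for 56 of 24203 named genes, 37 of them ligands with 48 sequences and 19 of them receptors with 25 sequences. It used names only and no measured value. Cells came from femurs of WASH knockout mice on the C57/BL6 strain and of wild type control mice on the same strain, and were purified by flow cytometry. The labels give neither the animals' age, nor the way in which WASH was removed, nor the number of mice behind an array. WASH itself is an activator of the Arp2/3 complex, which builds branched actin on endosomes. Each genotype had 1 array, so the values below describe a pair of arrays and no difference was tested against variation between animals.

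Chemokines are small secreted proteins that bind G protein-coupled receptors and direct the movement of leukocytes along their gradients. Ligands and receptors pair in overlapping sets: some receptors bind a single ligand and others bind many, and atypical receptors take up ligands without G protein signalling. In bone marrow, stromal cells make CXCL12, and its receptor CXCR4 on haematopoietic stem cells holds these cells in their niche, while ligands of CXCR2 such as CXCL1 and CXCL2 are made by activated tissue and call neutrophils out of the marrow.

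Intensities are those the authors deposited, on a linear scale, and differences are log2 values of knockout minus control. A gene with several sequences is given by its brightest one. Probes of random sequence, 5000 on each array, set the level without a matching transcript, at 75.7 on the knockout array and 71.3 on the control array. A member was said to be above this level when it exceeded that of its own array. The array medians were 137 on the knockout array and 137 on the control array. Levels of different genes are not set against each other, since each gene has its own probes.

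Washc1, the targeted gene, was at 107 on the knockout array, against 119 on the control array, a difference of -0.15. The files do not say where its probes sit relative to the deletion, and the value near background is no check of the genotype. Of 13 genes on the stem cell list, 9 were above the random-sequence level on both arrays, among them Kit, Ly6a, Cd34 and Slamf1. Procr, Fgd5 and Tek were at or below it on both. The list is mixed: Cd34 marks later progenitors, and Cd48 is a marker that mouse long-term stem cells lack. These 2 went opposite ways. Cd34 was at 1105 on the knockout array, against 746 on the control array, a difference of 0.57. Its 3 sequences ran over 0.25 to 0.85. Cd48 passed the random-sequence level in the control alone. It was at 50.6 on the knockout array, against 152 on the control array, a bound of at least 2.01-fold lower. Mecom was also lower by at least 2-fold, at 163 on the knockout array, against 350 on the control array, a difference of -1.10. Its 6 sequences ran over -1.65 to 0.49. The median over the list, Cd48 included, was -0.26, with 5 of 13 higher. Erythroid markers stood apart most: all 14 were higher on the knockout array, 10 of them by at least 2-fold, with a summed intensity of 84494 on the knockout array, against 16300 on the control array. Such sums, here and below, are weighted to the brightest genes of a list and are no measure of cell number. Hbb-b1 and Hba-a2 were at 43218 and 26801 on the knockout array, against 5699 and 5551 on the control array. Neutrophil markers were mostly lower, as set out beside the CXCR2 axis. B cell markers (4 of 8 higher, median 0.14), dendritic cell markers (2 of 5 higher, median -0.15) and markers of mast cells, basophils and eosinophils (2 of 6 higher, median -0.21) had members of both signs. The part of these cells in the chemokine values was not tested.

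Chemokine and receptor genes lay around the middle of the arrays and below. A mean level above the array medians was found for 29 of 56 (51.8%), against 61.0% of all genes. Of the 56 genes, 38 (67.9%) lay above the random-sequence level on both arrays, 16 on neither and 2 on one array, against 74.2% of all genes and 55.8% of 626 olfactory receptor genes above it on both. Counted by sequence, 46 of 73 (63.0%) were above it on both arrays, against 64.3% of all sequences. Olfactory receptors, which serve smell and are presumed silent in these cells, still reached 977 on the knockout array and 920.4 on the control array at the 95th percentile of their sequences. Only 5 member sequences exceeded that level on the knockout array and 5 on the control array. An intensity under that level is thus within the range that presumed silent genes also show, and it does not by itself establish transcription. The 16 genes at or below the random-sequence level on both arrays were the ligand genes Ccl1, Ccl5, Ccl7, Ccl8, Ccl12, Ccl20, Ccl28, Cxcl9, Cxcl13, Cxcl15 and Xcl1 and the receptor genes Ccr9, Ccr1l1, Cx3cr1, Cxcr5 and Il8ra, with intensities of 35.1 to 74.4 on the knockout array and 25.5 to 70.9 on the control array. The plot of member intensities by array shows 55 of the genes against that level.

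**Figure D1:**
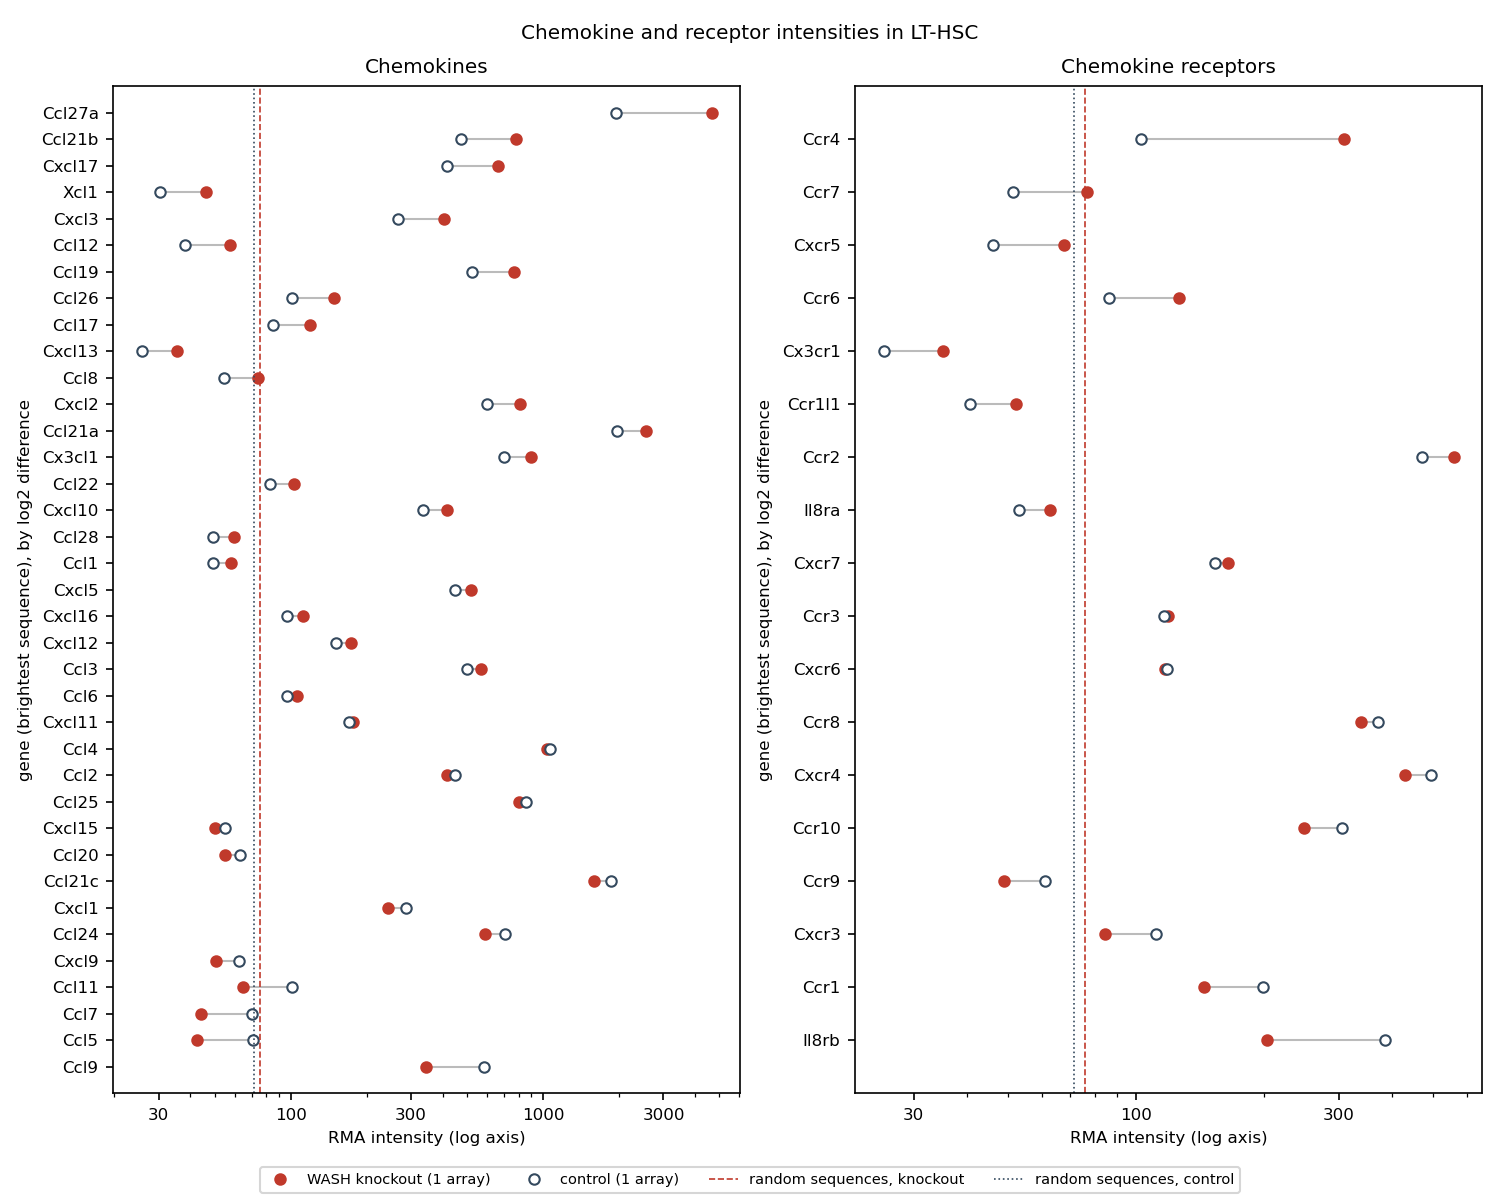
Intensity of 55 of the 56 member genes, chemokines (left) and chemokine receptors (right), on the WASH knockout array (filled) and the control array (open), 1 array each, on a log axis, with genes in order of their log2 difference. Dashed and dotted lines mark the random-sequence level of each array (75.7 knockout, 71.3 control); 16 genes lie at or below it on both arrays, and Ccl27a and Ccr4 have the widest gaps.

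At a size of 2-fold, 2 of the 56 genes were higher on the knockout array, the chemokine gene Ccl27a and the receptor gene Ccr4, and 0 were lower. The background over all genes was 5.95% for the higher direction and 6.41% for the lower. By sequence, 3 of 73 were at least 2-fold higher, beside 5.98% of all sequences, and 0 were at least 2-fold lower, beside 6.77% of all sequences. Neither count exceeded the background share, so the counts by themselves are not a result about the chemokine system.

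The members as a whole differed by a median of 0.20, with quartiles of -0.21 and 0.46, and 34 of 56 were higher on the knockout array. Over members above the array medians this median was 0.10, with 16 of 29 higher. The member median was 0.12 over the 46 member genes in the authors' deposited series table, which holds the same values for fewer sequences. With an offset of 64 before the log it was 0.12 over all 56. All genes had a median of 0.02 with quartiles of -0.40 and 0.43, and 12492 of 24203 were higher. Ligand genes had a median of 0.21, with 24 of 37 higher, and receptor genes a median of 0.03, with 10 of 19 higher. The 23 CC ligands had a median of 0.18 and the 12 CXC ligands one of 0.21. Among receptors, the median was 0.03 for the 11 CC receptors and -0.01 for the 7 CXC receptors. The sign for receptors depended on the dim members: it was -0.13 over receptors above the random-sequence level on both arrays and -0.20 over those above the array medians. The spread of differences was 0.49 (SD over 56 genes) for members, against 0.67 over all genes and 0.66 over olfactory receptors. The plot of spreads shows these groups side by side.

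**Figure D2:**
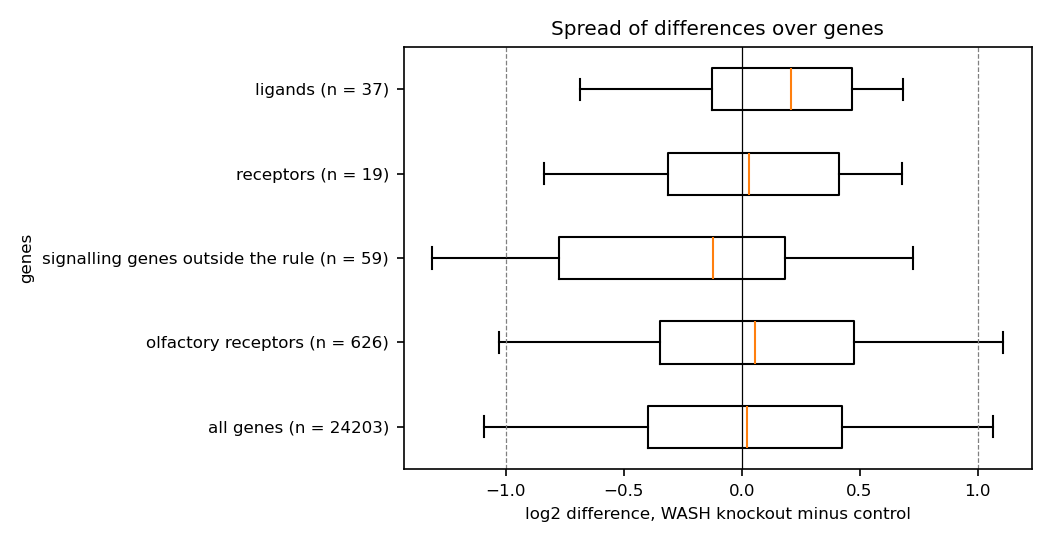
Log2 difference (WASH knockout minus control) of ligand genes, receptor genes, chemokine signalling genes outside the member rule, olfactory receptors and all genes, with 1 array per genotype. Boxes span the quartiles over genes with the median as a line, whiskers run from the 5th to the 95th percentile, and dashed lines mark 2-fold; member medians are 0.21 for ligands and 0.03 for receptors, and the signalling genes lie lower at -0.12.

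CXCL12 and CXCR4, the pair that keeps stem cells in the marrow, showed small differences. Cxcl12 (MM9 chromosome 6, 117118604 to 117125032) was at 173 on the knockout array, against 151 on the control array, a difference of 0.20, and lay at 2.29 times the random-sequence level in the knockout and 2.12 times in the control. Cxcr4 (MM9 chromosome 1, 130484775 to 130488864) was at 428 on the knockout array, against 493 on the control array, a difference of -0.20. Its other sequence was at 217 on the knockout array and 169 on the control array, a difference of 0.36 in the opposite direction. Cxcr7, now named Ackr3, is the atypical receptor that also binds CXCL12. It was at 165 on the knockout array, against 154 on the control array, a difference of 0.10. No sequence of these 3 genes reached 2-fold, and the sequences of Cxcr4 do not give its difference a direction. Of 9 stroma and endothelium markers, a list that holds Cxcl12, 5 were higher and 4 lower, with a median of 0.04. Their summed intensity was 4402 on the knockout array, against 4658 on the control array. Pecam1 alone was at 2376 and 2295.

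Among the genes of the CXCR2 axis, which recruits neutrophils, most ligands under the naming rule lay on the side opposite to the main receptor. Il8rb, which encodes CXCR2 (MM9 chromosome 1, 74200594 to 74207820), was at 203 on the knockout array, against 384 on the control array, a difference of -0.92 and a fold of 1.89 lower. This was the lowest difference of the 56 members. Cxcl3 was at 405 on the knockout array, against 266 on the control array, a difference of 0.61. Cxcl2, like Cxcl3, is made by activated macrophages. It was at 809 on the knockout array, against 602 on the control array, a difference of 0.43, and its other sequence differed by 0.52. Cxcl5 was at 519 on the knockout array, against 448 on the control array, a difference of 0.21. Cxcl1 ran the other way, at 243 on the knockout array, against 286 on the control array, a difference of -0.24. The other receptor of this family, Il8ra (Cxcr1), was at or below the random-sequence level on both arrays. The ligands under the naming rule thus divided 3 to 1, each by less than 2-fold. Ppbp (Cxcl7), a further CXCR2 ligand outside that rule, went with Il8rb, past 2-fold at a difference of -1.40. With it counted, the ligands have no common direction against the receptor.

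Markers of neutrophils, the main cell type that uses CXCR2, moved with Il8rb. All 15 measured neutrophil markers were above the random-sequence level on both arrays, 13 were lower on the knockout array and 5 of them by at least 2-fold, with a median of -0.87. Their summed intensity was 55946 on the knockout array, against 142562 on the control array, and S100a8, which encodes a calcium-binding protein abundant in neutrophils, was at 16696 on the knockout array, against 47334 on the control array. The part of these cells in the Il8rb value was not tested. In a sorted bulk sample, fewer cells of a type and less RNA per cell cannot be told apart.

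Promoters of Cxcl3, Cxcl1 and Cxcl2 are shown because these neighbouring ligand genes carry the same pair of motifs although their differences were not alike. RefSeq sequence of build GRCm38.p6 is given for the 100 bases before the start of each gene. Capitals mark GGGA followed by any 2 bases and TTCC, a form of the site bound by NF-kB, searched on both strands, and ATAAAA, a form of the TATA box, searched on the gene's strand. The NF-kB form matches both strands with overlapping letters in each of these genes.
Cxcl3, chr5:90786001-90786100, plus strand: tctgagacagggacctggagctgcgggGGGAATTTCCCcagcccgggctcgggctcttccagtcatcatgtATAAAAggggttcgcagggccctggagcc
Cxcl1, chr5:90891145-90891244, plus strand: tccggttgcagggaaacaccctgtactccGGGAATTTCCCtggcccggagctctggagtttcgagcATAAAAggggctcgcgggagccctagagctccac
Cxcl2, chr5:90903799-90903898, plus strand: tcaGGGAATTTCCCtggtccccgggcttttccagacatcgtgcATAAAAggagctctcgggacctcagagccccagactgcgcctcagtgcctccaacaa

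The NF-kB form begins 73 bases before the start in Cxcl3, 71 in Cxcl1 and 97 in Cxcl2. It was present within 250 bases before the start in 6 of 43 member promoters (14.0%), against 397 of 32851 promoters in the table (1.21%). The 43 promoters belong to 39 of the 56 member genes, and the others, among them Cxcl5 and Ccl2, had none to search. Cxcl1, Cxcl2 and Cxcl3 are neighbouring related genes among these 6, so the 6 are not separate occurrences. By role the NF-kB form was found in 5 of 27 ligand promoters (18.5%) and in 1 of 16 receptor promoters (6.25%). The TATA form lay within 100 bases before the start in 12 member promoters (27.9%), against 4.42% of all promoters. Both forms stood in 4 of the 27 ligand promoters (14.8%), Cxcl1, Cxcl2 and Cxcl3 among them, against 13 promoters in all (0.0396%). The genes with the NF-kB form (Ccl1, Ccr3, Cxcl1, Cxcl2, Cxcl3 and Cxcl10) had a median difference of 0.28, with 5 of 6 higher on the knockout array, against a median of 0.24 with 21 of 33 higher for member genes without it. The 2 medians differ by far less than the spread within either set, which ran over -0.24 to 0.61 and over -0.92 to 1.59. A match describes letters only and is no measured binding.

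Among inflammatory CXC ligands of CXCR3, which draws activated T cells, Cxcl10 was at 415 on the knockout array, against 334 on the control array, a difference of 0.31. Cxcl11 was at 177 on the knockout array, against 169 on the control array, a difference of 0.06. Cxcl9 was at or below the random-sequence level on both arrays, and the receptor gene Cxcr3, at 84.7 on the knockout array and 112 on the control array, differed by -0.40 from levels close to it. Cxcl17, a mucosal chemokine whose receptor is debated, was at 665 on the knockout array, against 417 on the control array, a difference of 0.67. Cxcl16, the ligand of CXCR6, was at 112 on the knockout array, against 97.0 on the control array, a difference of 0.20, and Cxcr6 differed by -0.01. The CXCR5 pair, Cxcl13 and Cxcr5, which organises B cell follicles, was at or below the random-sequence level on both arrays.

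Ccr4, the receptor for CCL17 and CCL22 on helper and regulatory T cells, had the highest difference of any member. Its single sequence (MM9 chromosome 9, 114400838 to 114405662) was at 308 on the knockout array, against 102 on the control array, a difference of 1.59 and a fold of 3.01. The control value stood at 1.44 times the random-sequence level, so the size of this fold rests on a value near background. Its ligands were dim but above that level on both arrays. Ccl17 was at 120 on the knockout array, against 85.1 on the control array, a difference of 0.49, and Ccl22 was at 103 on the knockout array, against 83.0 on the control array, a difference of 0.32. All 3 genes of the axis were thus higher on the knockout array, the receptor alone by 2-fold. T and NK cell markers had both signs: 8 of 13 were higher, with a median of 0.11 and a summed intensity of 8127 on the knockout array, against 8507 on the control array. The T cell receptor subunit gene Cd3e was at 522 on the knockout array, against 483 on the control array, while Cd3d, Cd3g and Prf1 were at or below the random-sequence level on both. The 2 markers past 2-fold went opposite ways. The granzyme gene Gzmb was at 121 on the knockout array, against 756 on the control array, a difference of -2.64. Klrb1c, an NK cell receptor gene, was at 752 on the knockout array, against 309 on the control array, a difference of 1.28, with sequences from -1.24 to 1.28. The part of these cells in the Ccr4 value was not tested.

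The promoter of Ccr4 is given for comparison with the CXC ligands, since the gene had the highest difference. Neither motif was found in the 100 bases before its start.
Ccr4, chr9:114496545-114496644, minus strand (GRCm38.p6): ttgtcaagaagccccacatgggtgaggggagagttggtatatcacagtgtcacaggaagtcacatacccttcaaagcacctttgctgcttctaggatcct

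Ccl27a encodes a chemokine made mainly by skin keratinocytes that attracts T cells bearing CCR10. Its brightest sequence (MM9 chromosome 4, 41716350 to 41717085) was at 4658 on the knockout array, against 1943 on the control array, a difference of 1.26 and a fold of 2.40. This was 61.6 times the random-sequence level in the knockout and 27.3 times in the control. Its other sequences were at 572, 228 and 118 on the knockout array, against 349, 178 and 105 on the control array, differences of 0.72, 0.36 and 0.17. All 4 were higher on the knockout array, and the brightest alone reached 2-fold, so that Ccl27a no longer passed that size by its dimmest sequence or by the mean of its sequences. The receptor gene Ccr10 was at 248 on the knockout array, against 305 on the control array, a difference of -0.30. Ccl28, the other ligand of CCR10, was at or below the random-sequence level on both arrays.

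Ccl27a lies beside Il11ra1, which encodes the interleukin-11 receptor and whose sequences run up to or into those of Ccl27a. One Il11ra1 sequence was at 833 on the knockout array, against 1405 on the control array, a difference of -0.75, and the other was at 2793 on the knockout array, against 2503 on the control array, a difference of 0.16. Near-identical copies of Ccl27a and Ccl19 occur in this region of the mouse genome, and the copies listed as Gm2091 and Gm13306 differed by 0.04 and 0.25. Signal of such copies on a shared probe cannot be told apart, so the Ccl27a value is uncertain. RefSeq lists 3 starts for Ccl27a, and the one farthest downstream has a TATA form, in capitals.
Ccl27a, chr4:41770213-41770312, minus strand (GRCm38.p6): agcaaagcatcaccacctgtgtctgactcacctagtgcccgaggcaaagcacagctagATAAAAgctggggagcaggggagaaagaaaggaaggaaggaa

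The CCR7 axis guides dendritic cells and naive T cells to lymph nodes, and most of its genes sit in the same stretch of chromosome 4. Ccl21a was at 2560.3 on the knockout array, against 1959 on the control array, a difference of 0.39, while its other sequence was at 1926 on the knockout array, against 2099 on the control array, a difference of -0.12. Ccl21b was at 779.5 on the knockout array, against 472 on the control array, a difference of 0.72. Ccl21c, a near copy, went the other way, at 1598 on the knockout array, against 1867 on the control array, a difference of -0.22. Ccl19 was at 771 on the knockout array, against 522 on the control array, a difference of 0.56, whereas the near copy Gm2023 differed by -0.21. A sequence listed as Gm12407 overlaps Ccl19 in position and went the other way, at 302 on the knockout array, against 403 on the control array, a difference of -0.42, so the sequences at the Ccl19 locus disagree. The receptor gene Ccr7 passed the random-sequence level in the knockout alone, at 76.7, against 51.4 on the control array, a bound of at least 1.08-fold higher. Genes with near-identical copies may share signal to an extent that the files do not show, so these values cannot be taken as independent of each other.

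Position was a second way to order the members, since chemokine genes lie in clusters that arose by duplication. With members less than 500000 bases apart joined, 39 genes fell into 10 clusters and 17 stood alone. Ccl27a, Ccl19, Ccl21b and Ccl21a on chromosome 4 (MM9, 41716350 to 41775337) were higher on the knockout array by their brightest sequences, by 0.39 to 1.26. Ccl21b and the brightest Ccl21a sequence overlap in position, so these are not separate places. With every member sequence joined by the same distance, the cluster (MM9, 41716342 to 42393080) also took in Ccl21c and the other Ccl21a sequence and had 7 of 9 sequences higher and 2 lower. Ccl22, Cx3cl1 and Ccl17 on chromosome 8 (MM9, 97269596 to 97335936) were all higher, by 0.32 to 0.49, with 1 sequence each. Cx3cl1, a membrane-bound chemokine of endothelium and neurons, was at 895 on the knockout array, against 699 on the control array, a difference of 0.36, and its receptor gene Cx3cr1 was at or below the random-sequence level on both arrays. The remaining clusters with more than 1 gene held genes of both signs. The CXC ligand cluster on chromosome 5 had 3 higher and 2 lower of 5, and the receptor cluster on chromosome 9 (MM9, 123683667 to 124040383) had 3 higher and 4 lower of 7.

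CCR1, a receptor of inflammatory CC chemokines, had a median of -0.24 over 6 genes together with its ligands, of which 2 were higher. This median rests on Ccl5, which was at or below the random-sequence level on both arrays: over the 5 genes above it the median was -0.03. Ccl9, a related myeloid chemokine, was at 344 on the knockout array, against 583 on the control array, a difference of -0.76. Ccl3 was at 567 on the knockout array, against 501 on the control array, a difference of 0.18, and Ccl4 was at 1040.4 on the knockout array, against 1061 on the control array, a difference of -0.03. Both are released by activated macrophages and T cells. Ccl6, a myeloid chemokine of the mouse, was at 106 on the knockout array, against 96.6 on the control array, a difference of 0.13. The receptor gene Ccr1 was at 145 on the knockout array, against 199 on the control array, a difference of -0.46. The difference of -0.74 for Ccl5 has no fold, since neither value was above that level.

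Of 11 monocyte and macrophage markers, a list that holds Ccl6, 9 were higher on the knockout array, with a median of 0.23 and a summed intensity of 9765 on the knockout array, against 8359 on the control array. These sums rest mostly on Emr1, at 7056 on the knockout array, against 6543 on the control array. Neutrophils also carry CCR1, and their markers were lower as given above. The part of either cell type in the Ccl9 and Ccr1 values was not tested.

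Genes of the CCR2 axis, which recruits monocytes, had no brightest sequence at 2-fold. Ccr2 was at 558 on the knockout array, against 469.6 on the control array, a difference of 0.25, and its ligand gene Ccl2 was at 418 on the knockout array, against 447 on the control array, a difference of -0.10. Ccl7 and Ccl12 were at or below the random-sequence level on both arrays. Genes of the CCR3 axis, which recruits eosinophils, had both signs. Ccl24 was at 591 on the knockout array, against 709 on the control array, a difference of -0.26, and Ccl26 was at 148 on the knockout array, against 101 on the control array, a difference of 0.56. Ccl11 passed the random-sequence level in the control alone, at 64.4 on the knockout array, against 101 on the control array, a bound of at least 1.33-fold lower. Ccr3 differed by 0.03.

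Lymphoid homing genes outside the CCR4, CCR7 and CCR10 axes had no brightest sequence at 2-fold. Ccl25, which draws thymocyte precursors through CCR9, was at 803 on the knockout array, against 858 on the control array, a difference of -0.10, and its 4 sequences ran over -0.16 to 0.66. Ccr8 was at 339 on the knockout array, against 369 on the control array, a difference of -0.13. Ccr6 had 3 sequences that disagreed. Its brightest was at 126 on the knockout array, against 86.5 on the control array, a difference of 0.55. A further sequence of Ccr6 was at 131 on the knockout array, against 53.7 on the control array, a bound of at least 1.84-fold higher, and the third at 70.6 on the knockout array, against 114 on the control array, a bound of at least 1.5-fold lower. The plot of differences by ligand and receptor axis shows 15 axes, of which the CCR4, CXCR5 and CX3CR1 axes had every gene higher on the knockout array and the CCR9 axis had none higher. In the CXCR5, CX3CR1 and CCR9 axes at least 1 gene was at or below the random-sequence level.

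**Figure D3:**
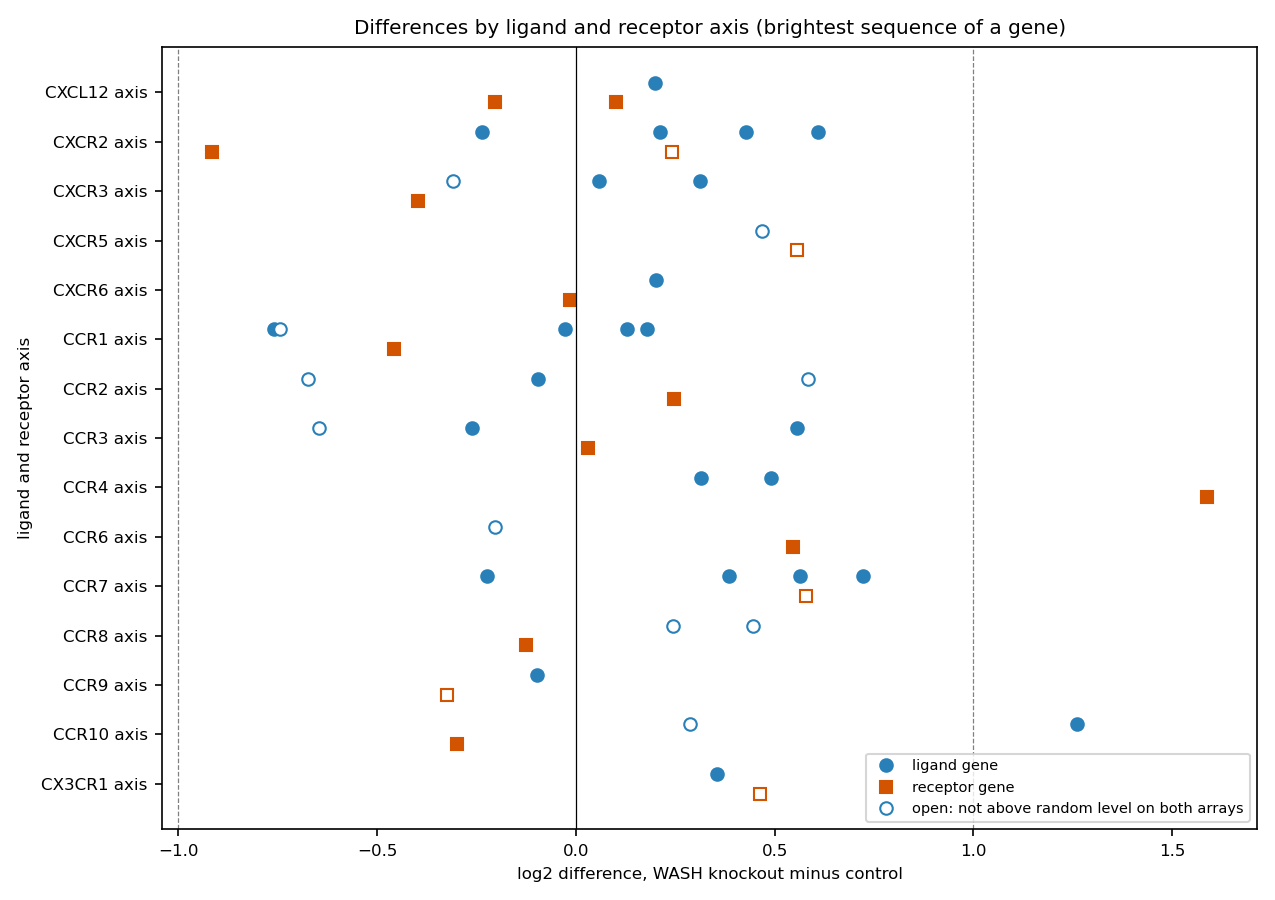
Log2 difference (WASH knockout minus control, 1 array each) of each ligand gene (circles) and receptor gene (squares) in 15 ligand and receptor axes; open symbols are genes not above the random-sequence level on both arrays, and dashed lines mark 2-fold. All 3 genes of the CCR4 axis lie right of 0. Il8rb lies farthest left in the CXCR2 axis, opposite to 3 of the 4 ligands shown, which leave out Ppbp.

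The spread between sequences that carry the same gene name was also read, and it includes differences between transcripts and, for genes with copies, between places in the genome. Of 11 member genes with several sequences, 28 sequences in all, 3 had all sequences in the same direction (Ccl27a, Cxcl16 and Cxcl2, each higher) and 0 had all lower. The pooled SD of differences between sequences of a gene was 0.53 for members, against 0.64 over 10194 genes with several sequences. The SD of differences over the 56 member genes, 0.49, was no larger than the spread between sequences of a member gene. At a size of 1.5-fold, 6 genes were higher (Ccl27a, Ccr4, Ccl21b, Cxcl17, Xcl1 and Cxcl3) and 6 lower (among them Il8rb, Ccl9, Ccl5, Ccl7 and Ccl11). Of these, Xcl1, Ccl5 and Ccl7 were at or below the random-sequence level on both arrays. No share over all genes is given at this size, so the counts by themselves are not a result about the members.

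**Figure D4:**
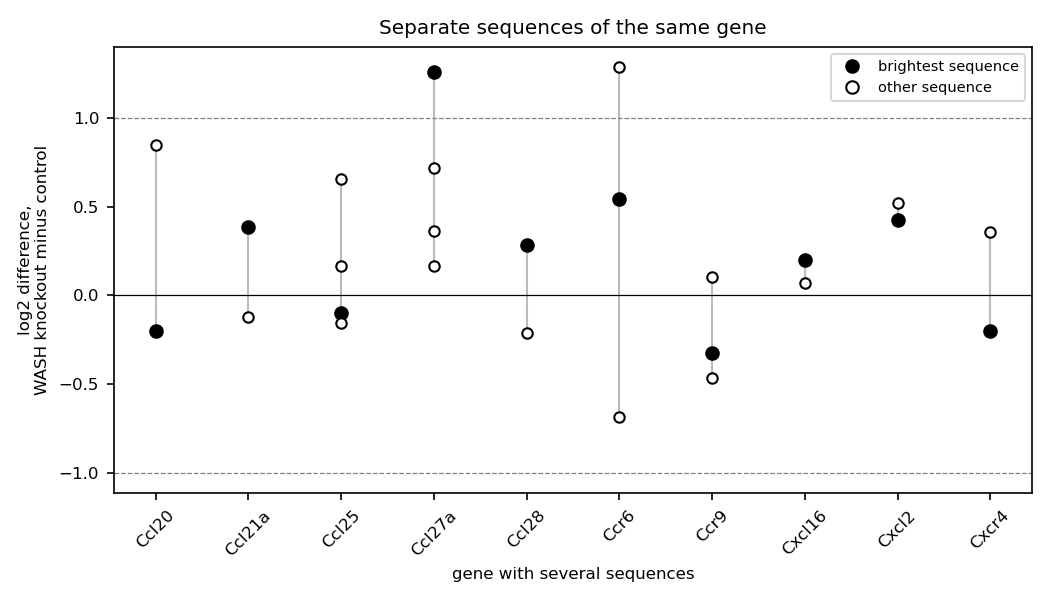
Log2 difference (WASH knockout minus control, 1 array each) of every sequence of 10 of the 11 member genes with several sequences; filled points are the brightest sequence, open points the others, and dashed lines mark 2-fold. The sequences of 7 genes lie on both sides of 0, and those of Ccl27a, Cxcl16 and Cxcl2 lie above it.

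Genes that act with chemokines but fall outside the naming rule were read as a list of 59: platelet chemokines, atypical receptors and the G protein, kinase and adhesion genes downstream of the receptors. Their median difference was -0.12, 23 were higher and 36 lower on the knockout array. At a size of 2-fold, 1 was higher and 10 were lower, beside 5.95% and 6.41% of all genes. Pf4 (Cxcl4) and Ppbp (Cxcl7), the chemokines stored in platelets, were both lower. Pf4 was at 325 on the knockout array, against 743 on the control array, a difference of -1.19, and Ppbp was at 110 on the knockout array, against 289 on the control array, a difference of -1.40. Over all 8 megakaryocyte and platelet markers, a list that holds these 2 genes, 3 were higher, 5 lower and the median was -0.06.

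Among the lower signalling genes, Pxn, a focal adhesion adaptor, was at 82.0 on the knockout array, against 449 on the control array, a difference of -2.45, with the knockout value at 1.08 times the random-sequence level, and its other sequence differed by -1.17. Vav1, which activates Rac in blood cells, was at 1768 on the knockout array, against 4776 on the control array, a difference of -1.43, but its 5 sequences ran over -1.43 to 0.53. Grk5, which desensitises receptors, was at 182 on the knockout array, against 422 on the control array, a difference of -1.21. Mapk3 (ERK1) was at 118 on the knockout array, against 255 on the control array, a difference of -1.10. The higher gene was Crk, an adaptor that binds paxillin, at 150 on the knockout array, against 35.0 on the control array, which is below the random-sequence level, so the bound is at least 2.10-fold, and its other sequence differed by -0.06. Of the atypical receptors, Ackr2 (listed as Ccbp2) differed by -0.08. Its other sequence, above the random-sequence level in the control alone, differed by -0.33. Ccrl2 differed by -0.06, but its other sequence went the other way. That sequence was at 90.7 on the knockout array, against 58.5 on the control array, which is below the random-sequence level. Ackr1 (Darc) and Ackr4 (Ccrl1) were at or below the random-sequence level on both arrays.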

How the data were processed

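Each genotype was measured on 1 NimbleGen mouse array. The authors deposited 1 intensity per sequence on a linear scale, made by RMA (background correction, normalization between arrays and summary of probes) per the submitters' processing notes. Its version: not given in the sources used here. All 73 member sequences were summarised from 3 probes, per the file columns, and coordinates are MM9. RMA pulls array distributions together, so a shift of most genes would not be visible.

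Intensities were taken to log2 without further scaling (Python 3.11.15, pandas 2.3.3, numpy 2.4.6). With 1 array a group no test, error or p-value is possible, and the number of arrays and the closeness to background limit precision. A size of 2-fold stands in for a threshold. A gene is its brightest sequence by mean log2 value. A member at or below the random-sequence level on 1 array has a bound, the other value over that level, and on both arrays no fold. Gene names came from the files, and 55 of 56 member genes matched a RefSeq gene. The steps were tested on simulated data with less spread than the differences here, which checks the code and not the 2-fold counts.

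Genes named with values were members above the mean of the array medians, members at 2-fold with a sequence above the random-sequence level, the CXCL12 axis, and signalling genes at 2-fold (up to 6 each way, both values above the random-sequence level), platelet chemokines and atypical receptors. Other members were named as partners of an axis, after their values were seen. The members and lists were chosen with earlier results of these data known. Alternatives tried were the authors' deposited series table, other scalings, offsets, sequence rules, dim-gene filters and sizes. Added after seeing the data were the removal of genes with near-identical copies, the axis medians over genes above the random-sequence level, and clusters of all member sequences. Cd34, Cd48, Mecom, Hbb-b1, Hba-a2, Emr1, Pecam1, Crk, Gzmb and Klrb1c were also named after their values were seen. The values of 1 member gene are not reported here; counts and medians over all members include it.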

Additional observations from a re-analysis of the deposited data

How the results depend on the processing

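The count of 2 higher genes became 5 with the random-sequence level subtracted and 6 at 1.5-fold. It became 1 when the sequences of a gene were averaged, 1 at 3-fold, 1 when every sequence had to reach 2-fold, and 1 without genes that have near-identical copies (chosen after seeing the data), which leaves Ccr4. The count of 0 lower genes became 3 with the random-sequence level subtracted and 6 at 1.5-fold. Shares over all genes are not given for these settings, so the changed counts are not a result about the members. Subtraction with a floor of 16 set the dim genes to equal values, and the median difference became 0.0000 for all members (0.20 before), 0.0000 for ligands (0.21 before) and 0.0000 for receptors. The receptor median of 0.03 reversed to -0.2028 for genes with a mean level above the array medians, to -0.2028 for genes with the higher value above its array median, and to -0.1257 for genes above the random-sequence level on both arrays, since these leave out dim receptors. The 46 sequences above the random-sequence level on both arrays became 5 above the 95th percentile of olfactory receptors. With the dimmest sequence of each gene the count of higher genes stayed at 2, but these were Ccr4 and Ccr6, without Ccl27a. Ccl27a and Ccr4 were the 2 genes counted after quantile normalization and with the offset. They were also the 2 counted in the series table. That table repeats the same values for fewer sequences, 58 of them members, so it is no separate check. The overall median was 0.1005 for genes with a mean level above the array medians, 0.1166 over the 46 genes in the series table and 0.1195 with the offset. Other alternatives for the medians stayed above 0. Dim members, 16 of 56 genes, carry no readable fold. No paired analysis was possible because there is a single array on each side.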
